A study of Mus musculus with 6 samples.

Results

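The genes described here are 37 genes of antigen presentation and of myeloid and lymphoid cells, measured in the corneal endothelium of mice. They were taken by name from 57180 gene identifiers, and all 37 were found. They comprise 7 genes of MHC class II presentation, 8 of MHC class I presentation, 20 of macrophages and related cells and 2 of lymphocytes. After a filter on low counts 17639 genes were tested, among them 36 of the 37. Cd3e was left out by that filter.

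The libraries are bulk RNA-seq of corneal endothelial cells, the single cell layer at the back of the cornea that pumps fluid out of the stroma. Both groups carried the same Col8a2 mutation on both alleles. Col8a2 encodes a collagen of the basement membrane under these cells, and mice with the mutation are used to model Fuchs dystrophy, in which the cells are lost. The Col8a2 group had the genotype Col8a2Q455K/Q455K (3 libraries). The Tcf4+/- group had the genotype Col8a2Q455K/Q455K/Tcf4+/- (3 libraries), that is, the same mutation with 1 allele of the transcription factor gene Tcf4 knocked out. No library from mice without the Col8a2 mutation was analysed here, so every value below is from the disease model. No treatment is labelled, and the sources used here do not state the strain, the age or how many animals went into a library. The p-values therefore measure the spread between these libraries, which may be partly technical.

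MHC class I molecules show peptides from inside the cell to CD8 T cells and are made by almost every cell. Their peptides are cut by the immunoproteasome, carried into the endoplasmic reticulum by the TAP transporter and loaded with the help of tapasin. MHC class II molecules show peptides from engulfed material to CD4 T cells and are made mostly by dendritic cells, macrophages and B cells. In the class II pathway the invariant chain Cd74 guards the binding groove and H2-DM exchanges its remnant for peptide, and the coactivator Ciita switches the genes on. The cornea holds resident macrophages and dendritic cells, chiefly in the stroma and epithelium. In a bulk library fewer cells of a type and less RNA per cell cannot be told apart.

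Total estimated counts ran from 30344161 to 54265479 per library. Tcf4, the gene named in the knockout label, stood at 313, 470 and 430 CPM in the Col8a2 libraries and at 440, 599 and 373 CPM in the Tcf4+/- libraries (CPM is the count scaled to the size of its library, with TMM factors). The ranges overlapped, and the mean of the libraries labelled Tcf4+/- (471 CPM) was above that of the others (404 CPM), so the groups are called by their labels only. The counts cover the whole gene, so RNA from a targeted allele, if any is made, is included. The defining markers of corneal endothelium were present, with a summed level of 12 genes between 13900 and 28010 CPM. The libraries were not free of other tissue. The sum of 12 lens genes was 3735 and 9881 CPM in Tcf4+/- replicates 2 and 3 and 33.9 to 567 CPM in the other libraries. Markers of stromal keratocytes (7 genes) summed to between 8745 and 19790 CPM and those of corneal epithelium (6 genes) to between 2217 and 6596 CPM.

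Sequences before the start sites are shown first for the genes on which the results below turn. They show which motif letters some class II genes hold and how alike the class I genes H2-K1 and H2-D1 are. They also show how closely Tap1 and Psmb9 lie. They are from RefSeq on build GRCm38.p6, 5′ to 3′, and positions count from the start, with -1 as the last base before it. RefSeq entries were found for 28 of the 37 genes, and 12 of these lie on chromosome 17, which carries the mouse MHC. Class II promoters are known for an X box, bound by the RFX complex, and a Y box, bound by NF-Y, and Ciita attaches to the proteins on these boxes. The windows below cover positions -110 to -1 of H2-Aa (chr17:34287824-34287933, minus strand), H2-Eb1 (chr17:34305757-34305866, plus strand) and H2-DMb1 (chr17:34153081-34153190, plus strand). Capitals mark the letters ATTGG (Y box) on either strand and AGNNACNGA (X box).
H2-Aa: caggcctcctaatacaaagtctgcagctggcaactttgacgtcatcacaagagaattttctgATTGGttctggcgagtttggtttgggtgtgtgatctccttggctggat
H2-Eb1: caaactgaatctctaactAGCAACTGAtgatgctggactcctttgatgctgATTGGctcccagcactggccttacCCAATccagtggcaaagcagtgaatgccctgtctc
H2-DMb1: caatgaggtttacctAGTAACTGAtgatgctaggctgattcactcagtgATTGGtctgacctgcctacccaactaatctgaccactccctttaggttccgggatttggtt
The Y box letters began at -48 in H2-Aa, -59 in H2-Eb1 and -61 in H2-DMb1. They occurred in 15 of the 28 genes, and 37.4% of all 32851 promoter entries hold them. The X box letters occurred in 5 of the 28, H2-Eb1, H2-DMb1, B2m, C1qb and Tapbp, and 17.7% of all entries hold them. H2-Aa had no match to the X box letters. Both shares are given for comparison only. A match of letters is a description and does not show that a factor binds.

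The class I genes H2-K1 and H2-D1 carry a pair of kappa B motifs, the binding site of NF-kappaB, in a stretch that is nearly the same in both. It covers positions -135 to -86 of H2-K1 (chr17:34000433-34000482, minus strand) and -195 to -146 of H2-D1 (chr17:35262899-35262948, plus strand). Capitals mark the kappa B letters GGGAANCCC on either strand. H2-K1 has more than 1 RefSeq start, and positions are from the first entry.
H2-K1: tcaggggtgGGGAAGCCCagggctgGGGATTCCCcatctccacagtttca
H2-D1: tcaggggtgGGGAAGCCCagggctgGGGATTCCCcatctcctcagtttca
Of these 50 bases 49 were identical. The letters occurred in 3 of the 28 genes, and 1.83% of all promoter entries hold them. H2-K1 and H2-D1 belong to a family of similar genes among which the estimated counts divide shared reads, so the level of each is uncertain.

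Tap1 and Psmb9 are transcribed away from each other, with 225 bases between their starts (chr17:34187331-34187555, printed on the plus strand, from Psmb9 on the left to Tap1 on the right). Capitals mark the GC box letters GGGCGG on either strand, which 35.7% of all entries hold.
Tap1-Psmb9: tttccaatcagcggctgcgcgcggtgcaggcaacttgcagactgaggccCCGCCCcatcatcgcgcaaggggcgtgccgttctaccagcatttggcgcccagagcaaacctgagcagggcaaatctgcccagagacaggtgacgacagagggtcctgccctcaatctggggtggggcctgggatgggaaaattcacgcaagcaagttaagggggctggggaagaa
The levels of this pair of neighbours differed in how far they varied between libraries, as given with the class I genes below.

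Between the groups, no member passed the test. With edgeR's quasi-likelihood test 0 of 36 members had an adjusted p under 0.05, and the share over all genes tested was 0.0%. The adjusted p was 0.9999 for every member. At an unadjusted p under 0.05 the count was 0 of 36 as well, against 2.42% of all genes tested (1.42% higher in the Tcf4+/- group), and DESeq2 called 0 of the 35 to which it gave an adjusted p, against 0.513% of all genes. The values of the groups were free of overlap for 1 of the 36 members, Adgre1, which was lower in the Tcf4+/- group. Over all genes tested 8.1% were free of overlap (4.53% of all genes as higher and 3.57% as lower), so 1 of 36 is a smaller share than over all genes. For the 36 the median of the log2 fold changes was 0.15, and 20 were fitted higher in the Tcf4+/- group and 16 lower. Over all genes tested the median was 0.00109 and 50.1% were fitted higher. With 3 libraries against 3, an exact permutation test of a single gene cannot give a p below 0.1.

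**Figure D1:**
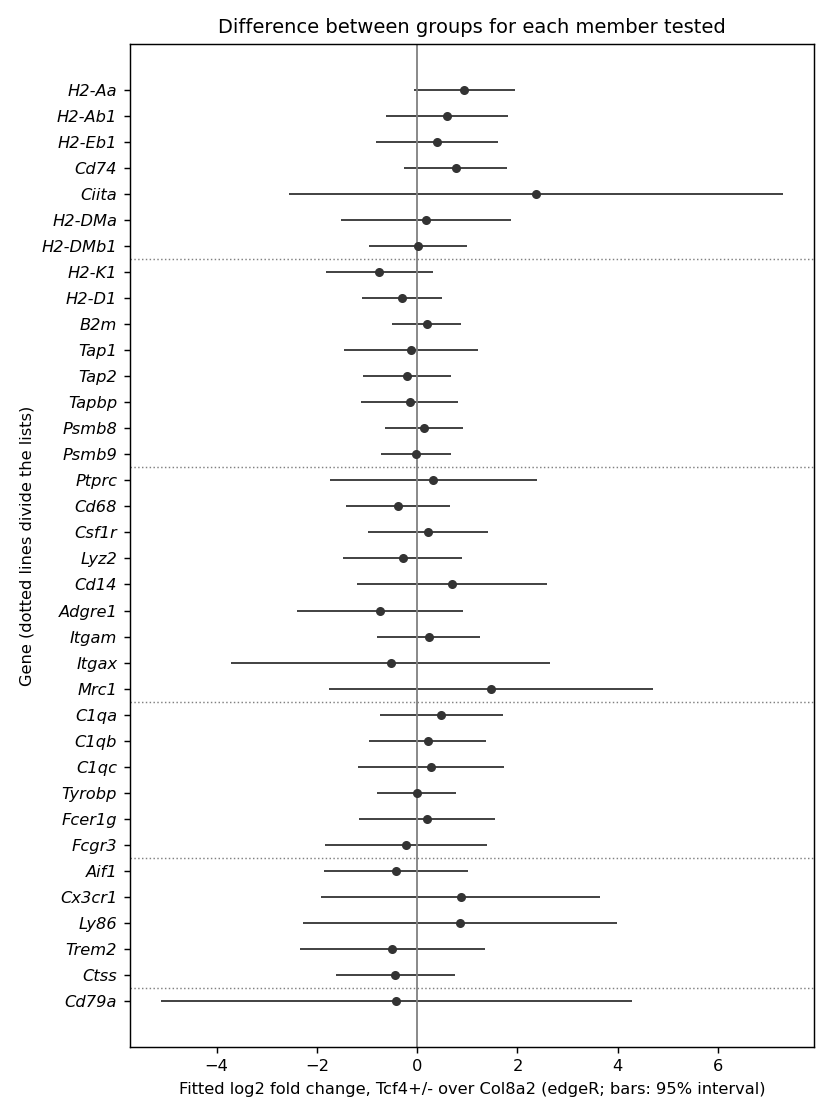
Fitted log2 fold change of each of the 36 members tested (x axis, Tcf4+/- over Col8a2; points) with its 95% interval (bars), by gene (y axis) and list. The interval of every gene shown includes 0, and those of Ciita and Cd79a, the genes of lowest level tested, are the widest.

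Single libraries stood out across many of these genes. Col8a2 replicate 3 was the lowest of the 6 libraries for 17 of the 36 members, against 17.3% of all genes tested. Col8a2 replicate 2 was the highest for 13, against 18.4% of all genes, and Tcf4+/- replicate 2 for 11, against 13.8%. Among the 28 members of at least 5 CPM, the highest library stood a median of 3.87-fold above the lowest, and over all 11932 genes of at least 5 CPM this ratio was 2.503.

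**Figure D2:**
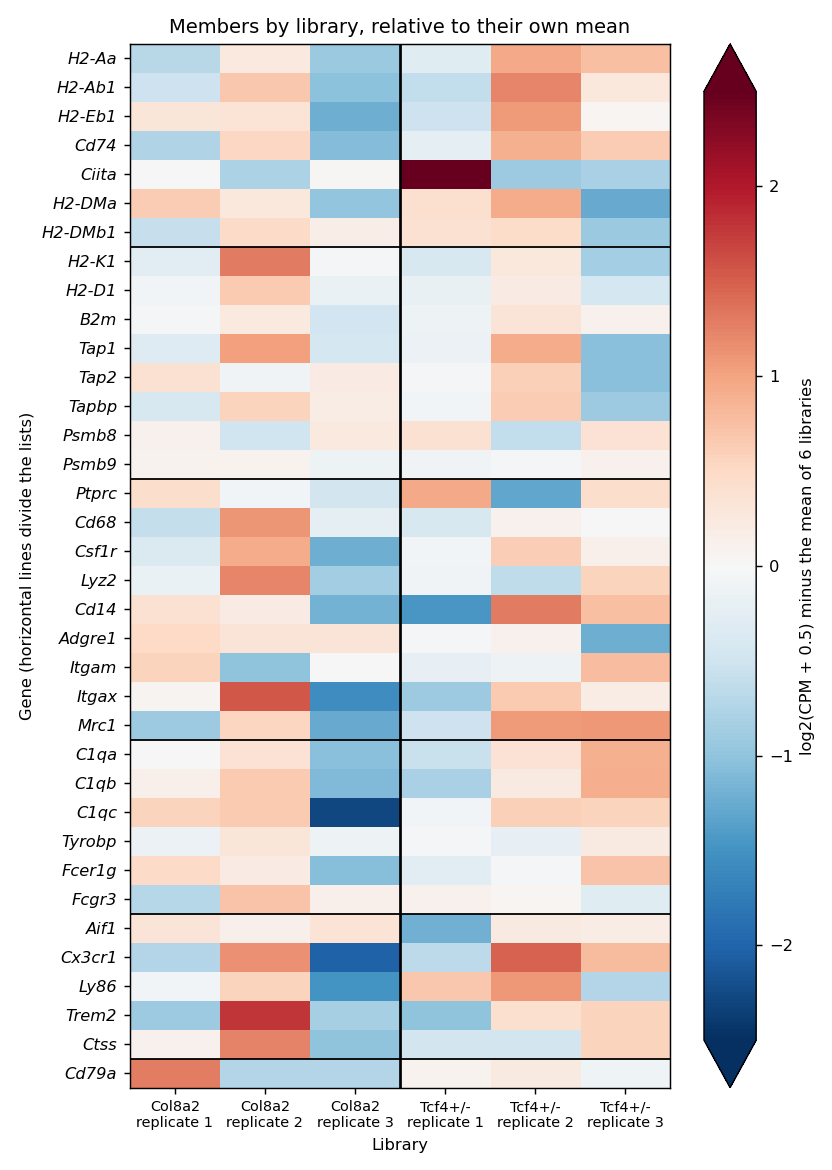
Each of the 36 members tested (rows, divided by list) in each of the 6 libraries (columns, Col8a2 left and Tcf4+/- right of the thick line), as log2(CPM + 0.5) minus the mean of the gene over the libraries (color). Col8a2 replicate 3 is the lowest library for 17 rows and Col8a2 replicate 2 the highest for 13.

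The genes of MHC class II presentation had the highest median difference of the member lists, 0.60 on the log2 scale, and all 7 were fitted higher in the Tcf4+/- group, but none passed the test. Their summed level was 151, 296 and 121 CPM in the Col8a2 libraries and 189, 402 and 263 CPM in the Tcf4+/- libraries. The groups overlapped, since Col8a2 replicate 2 stood above Tcf4+/- replicates 1 and 3. Per gene length, Cd74 was the most abundant of the list, at 92.6 CPM per kilobase on average, followed by H2-Ab1 at 48.5 and H2-Aa at 31.5.

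H2-Aa, the alpha chain of the I-A molecule, stood at 15.4, 30.1 and 13.1 CPM in the Col8a2 libraries and at 20.4, 49.3 and 42.9 CPM in the Tcf4+/- libraries. Its fitted log2 fold change was 0.94 with a standard error of 0.45 (95% interval from -0.07 to 1.96), and its unadjusted edgeR p of 0.0656 was the smallest of all members (adjusted p = 0.9999). H2-Ab1, the beta chain that pairs with it, stood at 27.3, 63.7 and 19.1 CPM and at 25.7, 92.8 and 47.8 CPM. For this chain, too, replicate 2 was the highest library in both groups. The ratio of H2-Aa to H2-Ab1 counts stayed between 0.473 and 0.897 over the 6 libraries, while each chain varied 3.77-fold and 4.86-fold. H2-Eb1, the beta chain of the I-E molecule, stood at 25.0, 25.8 and 8.38 CPM and at 13.9, 42.96 and 20.9 CPM. Cd74, the invariant chain, stood at 50.3, 123 and 39.9 CPM in the Col8a2 libraries and at 73.0, 158 and 132 CPM in the Tcf4+/- libraries, and the fitted difference was 0.77 on the log2 scale (standard error 0.46). These 4 genes were all highest in Tcf4+/- replicate 2 and lowest in Col8a2 replicate 3.

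The genes that load class II molecules or switch them on departed from the chains in single libraries. H2-DMa stood at 10.2, 7.79 and 3.00 CPM in the Col8a2 libraries and at 8.56, 12.7 and 2.40 CPM in the Tcf4+/- libraries, and its partner H2-DMb1 at 21.9, 46.2 and 36.9 CPM and at 43.1, 45.7 and 17.1 CPM. H2-DMa was highest in Tcf4+/- replicate 2, like the chains. Tcf4+/- replicate 3 was the lowest library for both, although its H2-Aa and Cd74 levels were the second highest. H2-DMb2, a similar gene outside the members, was highest in that library. It stood at 0.786, 7.73 and 3.00 CPM in the Col8a2 libraries and at 1.48, 2.71 and 11.6 CPM in the Tcf4+/- libraries. How reads were divided between H2-DMb1 and H2-DMb2 was not tested, so the level of each is uncertain. Ciita, the coactivator, was close to absent in 5 libraries, with 20, 2 and 23 counts in the Col8a2 libraries and 225, 0 and 1 counts in the Tcf4+/- libraries. The library with 225 counts, Tcf4+/- replicate 1, stood among the lower ones for the class II chains, and the library with 0 counts, Tcf4+/- replicate 2, was the highest for them. A count of 0 there allows up to 0.0553 CPM, for counting error only.

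The size of the class II difference depended on single libraries. Its median log2 fold change was 1.26 without Col8a2 replicate 2 and 0.02 without Tcf4+/- replicate 2. Without the latter H2-Aa stood at 0.72 and Cd74 at 0.55, and without the former at 1.40 and 1.43. Without Tcf4+/- replicates 2 and 3, the libraries with the highest lens sums, the median was 0.06, with 1 library left in that group.

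**Figure D3:**
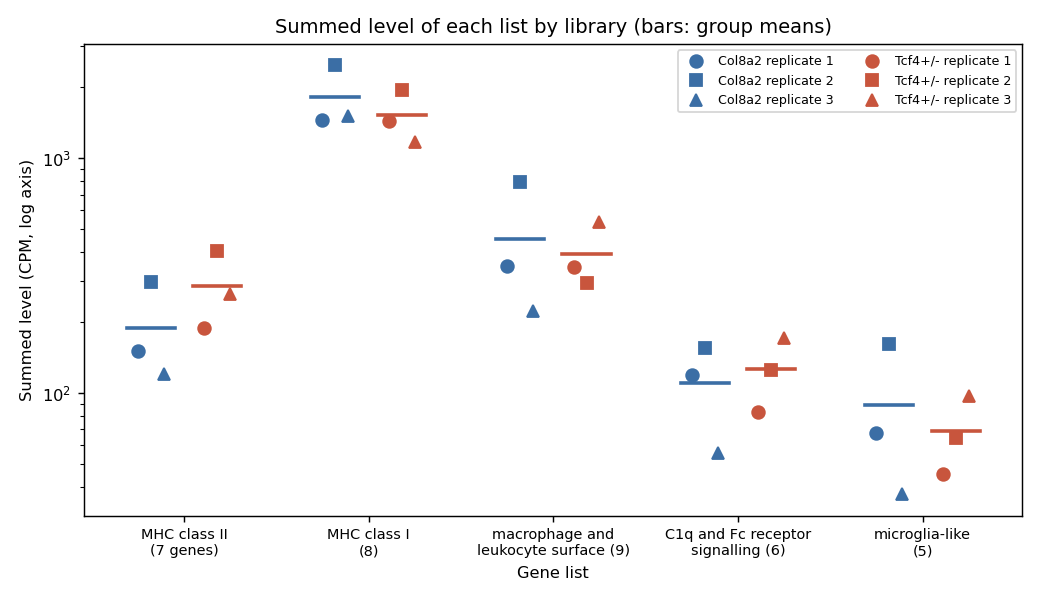
Summed level of each list (y axis, CPM on a log axis; x axis, list with its number of genes) in each library (points; circles, squares and triangles are replicates 1, 2 and 3) with the group means (bars). For MHC class II the Col8a2 libraries lie between 121 and 296 CPM and the Tcf4+/- libraries between 189 and 402 CPM, and in every list the groups overlap.

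Of the genes of MHC class I presentation 6 of 8 were fitted lower and 2 higher in the Tcf4+/- group, with a median log2 fold change of -0.14. None passed the test. Per gene length H2-K1, B2m and H2-D1 were the most abundant of the 37 genes, at 441, 328 and 315 CPM per kilobase, while Tap1 was at 7.46. The summed level was 1452, 2480 and 1513 CPM in the Col8a2 libraries and 1443, 1945 and 1175 CPM in the Tcf4+/- libraries. Replicate 2 was the highest library of each group.

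H2-K1, a heavy chain, stood at 239, 706 and 279 CPM in the Col8a2 libraries and at 217, 346 and 159 CPM in the Tcf4+/- libraries. The Col8a2 value of 706 CPM stood apart, and the other 5 lay between 159 and 346 CPM. Its log2 fold change was -0.76 with a standard error of 0.48 (95% interval from -1.83 to 0.31), and without Col8a2 replicate 2 it was -0.10. H2-D1, the other heavy chain, stood at 536, 881 and 497 CPM and at 493, 644 and 411 CPM. B2m, the light chain of all class I molecules, was among the steadiest members, at 204, 250 and 152 CPM and at 194, 266 and 229 CPM. The fitted ratio of the groups for B2m was 1.14 (95% interval from 0.711 to 1.82).

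Tap1 and Psmb9, the neighbours whose shared upstream stretch is printed above, behaved differently. Tap1, a subunit of the peptide transporter, stood at 13.6, 35.4 and 12.5 CPM in the Col8a2 libraries and at 15.3, 32.9 and 7.97 CPM in the Tcf4+/- libraries, a 4.44-fold range with replicate 2 highest in both groups. Psmb9, a catalytic subunit of the immunoproteasome, stood at 26.0, 25.9 and 22.4 CPM and at 23.2, 23.7 and 26.3 CPM. This was the narrowest range of all members, 1.18-fold, and the ratio of Tap1 to Psmb9 counts ran from 0.303 in Tcf4+/- replicate 3 to 1.39 in Tcf4+/- replicate 2. Psmb8, a further catalytic subunit, ran the other way from Tap1, at 129, 84.3 and 143 CPM and at 157, 78.3 and 155 CPM, with replicate 2 the lowest library of each group. Tap2, the other transporter subunit, stood at 75.5, 54.2 and 66.1 CPM and at 55.4, 87.0 and 27.7 CPM, and Tapbp, tapasin, at 229, 444 and 341 CPM and at 289, 467 and 159 CPM. For 5 of the 8 genes Tcf4+/- replicate 3 was the lowest library. Over all 36 members tested that library was the lowest for 8, and over all genes tested for 22.6%. Tcf4+/- replicate 3 also had the lowest sum of corneal endothelium markers, 13900 CPM. The part of this in the class I levels was not tested.

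The libraries also differed by transcript length. In Tcf4+/- replicate 3 genes with transcripts under 1500 bases (5065 genes) stood a median of 0.38 above their mean over the libraries on the log2 scale, and those over 4000 bases (3225 genes) at -0.20. In Col8a2 replicate 2 the medians were -0.15 and 0.26, and in Tcf4+/- replicate 2 they were 0.03 and 0.20. In the other libraries they lay between -0.03 and 0.11 for short and between -0.04 and 0.07 for long transcripts. The part of this in the difference between Tap1 and Psmb9 was not tested.

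**Figure D4:**
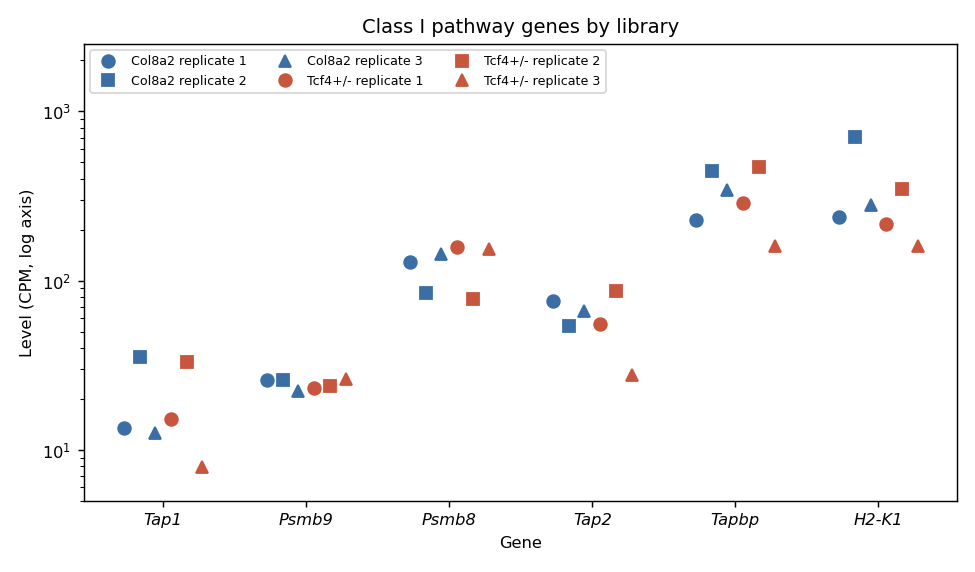
Level of 6 genes of the class I pathway (x axis) in each library (y axis, CPM on a log axis; blue Col8a2, red Tcf4+/-; circles, squares and triangles are replicates 1, 2 and 3). Psmb9 spans a 1.18-fold range while Tap1 spans 4.44-fold, with both squares high for Tap1 and low for Psmb8.

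Macrophage genes were detected in every library, and none passed the test between the groups. For the 9 surface and lysosomal markers the median was 0.21 on the log2 scale, with 5 fitted higher and 4 lower. Their summed level was 347, 791 and 223 CPM in the Col8a2 libraries and 344, 294 and 536 CPM in the Tcf4+/- libraries. The highest and the lowest library were both of the Col8a2 group.

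Lyz2, the lysozyme of macrophages and neutrophils, made up most of this sum, at 252, 657 and 154 CPM in the Col8a2 libraries and at 266, 182 and 419 CPM in the Tcf4+/- libraries. Csf1r, the receptor for the growth factor on which macrophages depend, stood at 16.7, 41.8 and 9.01 CPM and at 20.7, 33.6 and 23.7 CPM. Cd68, a lysosomal glycoprotein of macrophages, stood at 17.4, 57.4 and 22.5 CPM and at 19.7, 28.6 and 26.5 CPM. For all of these Col8a2 replicate 2 was the highest library, and the spread within the Col8a2 group was wider than that within the Tcf4+/- group, 4.27-fold against 2.30-fold for Lyz2 and 4.64-fold against 1.62-fold for Csf1r. Whether the spread differs between the groups was not tested.

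Adgre1, which encodes the macrophage surface protein F4/80, was the only member whose groups did not overlap. It stood at 6.63, 5.81 and 5.83 CPM in the Col8a2 libraries and at 4.38, 4.91 and 1.65 CPM in the Tcf4+/- libraries. The log2 fold change was -0.74 with a standard error of 0.74 (95% interval from -2.39 to 0.91), and edgeR gave an unadjusted p of 0.342 and an adjusted p of 0.9999. Ptprc, which encodes the pan-leukocyte protein CD45, was at a low level, 4.61, 3.11 and 2.23 CPM in the Col8a2 libraries and 6.80, 1.04 and 4.59 CPM in the Tcf4+/- libraries. Its order was unlike that of Lyz2, Csf1r and Cd68, with Tcf4+/- replicate 1 highest and Tcf4+/- replicate 2 lowest. Tyrobp, given below, was also lowest in Tcf4+/- replicate 2. Itgam, an integrin chain of myeloid cells, was likewise out of step, at 40.7, 13.4 and 27.5 CPM and at 23.7, 25.0 and 46.8 CPM, with its lowest value in the library where Lyz2 and Cd68 were highest.

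The remaining surface markers were sparse and varied more. Cd14, a coreceptor for bacterial lipopolysaccharide, stood at 7.22, 6.26 and 2.09 CPM in the Col8a2 libraries and at 1.65, 14.1 and 9.42 CPM in the Tcf4+/- libraries. Mrc1, the mannose receptor, had 15, 85 and 7 counts and 27, 150 and 82 counts, and Itgax, the integrin chain CD11c of dendritic cells, had 66, 237 and 6 counts and 22, 130 and 46 counts. Mrc1 had the widest fitted difference of the list, 1.48 on the log2 scale with a standard error of 1.44, and without Col8a2 replicate 2 or replicate 3 it was 3.14 or 0.98.

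For the genes of C1q and of Fc receptor signalling the median was 0.20 on the log2 scale, with 4 fitted higher and 2 lower and none past the test. C1q, the recognition molecule that starts the classical complement pathway, is made by tissue macrophages and is built from the chains of C1qa, C1qb and C1qc. C1qb stood at 42.8, 62.3 and 17.9 CPM in the Col8a2 libraries and at 22.3, 46.1 and 74.0 CPM in the Tcf4+/- libraries. C1qa stood at 12.6, 16.5 and 5.95 CPM and at 8.54, 16.5 and 23.9 CPM, which kept its ratio to C1qb between 0.264 and 0.382. C1qc stood at 31.2, 33.5 and 3.93 CPM and at 19.9, 31.9 and 31.2 CPM, and its ratio to C1qb ran from 0.220 in Col8a2 replicate 3 to 0.893 in Tcf4+/- replicate 1. All 3 chains were lowest in Col8a2 replicate 3, and for none were the groups apart.

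Tyrobp, the DAP12 adaptor through which many myeloid receptors signal, was among the steadiest members, at 18.3, 25.1 and 18.5 CPM in the Col8a2 libraries and at 20.0, 17.5 and 23.8 CPM in the Tcf4+/- libraries. Its fitted ratio between the groups was 0.991 (95% interval from 0.577 to 1.70). Fcer1g, the Fc receptor gamma chain, stood at 11.8, 9.71 and 3.77 CPM and at 6.88, 8.09 and 14.1 CPM, and Fcgr3, an activating Fc gamma receptor, at 2.78, 8.32 and 5.36 CPM and at 5.27, 5.05 and 3.82 CPM. The groups overlapped for both.

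The 5 genes often used as microglial markers, which other tissue macrophages also express, had a median of -0.42 on the log2 scale, with 2 fitted higher and 3 lower. None passed the test, and the median was 1.08 without Col8a2 replicate 2. Trem2, a lipid-sensing receptor that signals through Tyrobp, stood at 4.14, 29.7 and 4.45 CPM in the Col8a2 libraries and at 3.88, 10.99 and 12.3 CPM in the Tcf4+/- libraries. The value in Col8a2 replicate 2 was far above the other 5, and the ratio of Trem2 to Tyrobp counts ran from 0.194 to 1.19. Ctss, the cathepsin that trims the invariant chain, stood at 53.0, 117 and 24.0 CPM and at 35.5, 35.4 and 72.3 CPM, with the same library highest.

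Cx3cr1, the fractalkine receptor of resident macrophages, stood at 1.17, 5.57 and 0.178 CPM in the Col8a2 libraries and at 1.25, 7.14 and 4.25 CPM in the Tcf4+/- libraries, a 40.2-fold range over the 6 libraries. Ly86, a partner of the Toll-like receptor relative CD180, stood at 1.15, 2.04 and 0.119 CPM and at 2.27, 3.16 and 0.540 CPM. Aif1, which encodes the macrophage protein IBA1, was by contrast level, at 7.15 to 8.38 CPM in 5 libraries and 2.54 CPM in Tcf4+/- replicate 1.

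The 2 lymphocyte markers among the members, Cd3e and Cd79a, were close to absent. Some other lymphocyte genes, given further below, stood higher. Cd3e, a chain of the T cell receptor complex, had 0, 0 and 20 counts in the Col8a2 libraries and 1, 19 and 2 counts in the Tcf4+/- libraries. Cd79a, a chain of the B cell receptor complex, had 71, 0 and 0 counts and 18, 26 and 8 counts. In every library both genes lay at or under 1.51 CPM, and a count of 0 allowed up to 0.0643 CPM in Col8a2 replicate 2, for counting error only. No direction can be read from such counts.

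Further genes of the same pathways gave the same picture of 0 calls with edgeR. Of 24 other antigen presentation genes 21 were tested, with a median log2 fold change of -0.11, 5 fitted higher and 16 lower. Psme2, a proteasome activator subunit, and Ctsb, a lysosomal cathepsin, were the most abundant of these per gene length, at 423 and 337 CPM per kilobase. Rfxank, a subunit of the RFX complex that binds the X box, had the smallest p of this list. It stood at 6.56, 6.38 and 10.4 CPM in the Col8a2 libraries and at 14.1, 18.8 and 25.6 CPM in the Tcf4+/- libraries, so the groups did not overlap. The log2 fold change was 1.32 with a standard error of 0.46, and edgeR gave an unadjusted p of 0.0163 and an adjusted p of 0.9999. For Psmb10, the remaining immunoproteasome subunit, the fitted difference was 0.51 (log2, standard error 0.32).

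Of 28 other genes of macrophages and dendritic cells 23 were tested, with a median log2 fold change of 0.41, 15 fitted higher and 8 lower. Cd52, a small leukocyte surface protein, was among the most abundant per gene length, with a log2 fold change of 0.89. DESeq2 called 2 genes of this list, Clec7a and Lyve1, which edgeR did not call. Over all genes DESeq2 called 107 of 20874 (0.513%). Clec7a, the receptor Dectin-1 for fungal glucan, stood at 12.3, 12.8 and 3.48 CPM in the Col8a2 libraries and at 0.254, 1.71 and 1.35 CPM in the Tcf4+/- libraries (log2 fold change -3.11, standard error 0.95, edgeR unadjusted p = 0.00903, edgeR adjusted p = 0.9999, DESeq2 adjusted p = 0.0414). Lyve1, a hyaluronan receptor of lymphatic vessels and of some tissue macrophages, had 0, 3 and 0 counts in the Col8a2 libraries. It had 157, 114 and 11 counts in the Tcf4+/- libraries. The summed counts, 3 and 282, gave a ratio of 104 with a 95% interval from 35.2 to 506. That interval is for counting error only and leaves out the spread between libraries. The edgeR log2 fold change was 6.39 with a standard error of 2.06 (95% interval from 1.77 to 11.01). The edgeR unadjusted p of Lyve1 was 0.0118 (edgeR adjusted p = 0.9999) and the DESeq2 adjusted p was 0.0249.

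Of 17 other lymphocyte and granulocyte genes 10 were tested and 6 were fitted higher and 4 lower, with a median of 0.17. S100a9, a calcium-binding protein abundant in neutrophils, stood at 20.5, 2.85 and 18.02 CPM in the Col8a2 libraries and at 8.03, 6.12 and 34.3 CPM in the Tcf4+/- libraries. S100a8 of the same list stood at 2.80, 2.87 and 2.27 CPM and at 2.92, 1.24 and 3.58 CPM. The neutrophil marker Ly6g had a count of 0 in all 6. Igkc, the immunoglobulin kappa constant gene, stood at 5.12, 14.8 and 0.909 CPM and at 0.572, 2.84 and 47.0 CPM, and Jchain, the joining chain of plasma cells, at 0.170, 2.65 and 0 CPM and at 0.487, 0.527 and 4.22 CPM. Both were highest in Tcf4+/- replicate 3.

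Some marker lists of other cell types shared their extreme libraries with the class II genes, and others did not. Col8a2 replicate 3, the lowest library for class II and for the 20 macrophage genes (121 and 316 CPM in sum), was also the lowest for markers of pigment cells, vascular endothelium and stromal keratocytes, with sums of 340, 21.8 and 8745 CPM. In the other 5 libraries these sums ran from 588 to 1515 CPM, from 67.6 to 149 CPM and from 11420 to 19790 CPM. Tcf4+/- replicate 2, the highest for class II, was the highest for the same 3 lists. It was also the highest for corneal endothelium (28010 CPM), where Col8a2 replicate 3 stood close to it (27970 CPM). For corneal epithelium Tcf4+/- replicate 2 was instead the lowest library (2217 CPM), and for lens Col8a2 replicate 2 was (33.9 CPM). Every gene of the pigment cell, vascular endothelium and stromal keratocyte lists had at least 1 count in every library. Markers of red blood cells (5 genes) summed to 1296, 531 and 1967 CPM in the Col8a2 libraries and to 6127, 1362 and 2944 CPM in the Tcf4+/- libraries. The sum of the 20 macrophage genes did not have this order, since it was highest in Col8a2 replicate 2 (1108 CPM) and stood at 484 CPM in Tcf4+/- replicate 2. Relative to the corneal endothelium sum, the class II sum varied 4.39-fold between libraries and the macrophage sum 5.12-fold. The part of these other cells in the levels of the members was not tested.

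**Figure D5:**
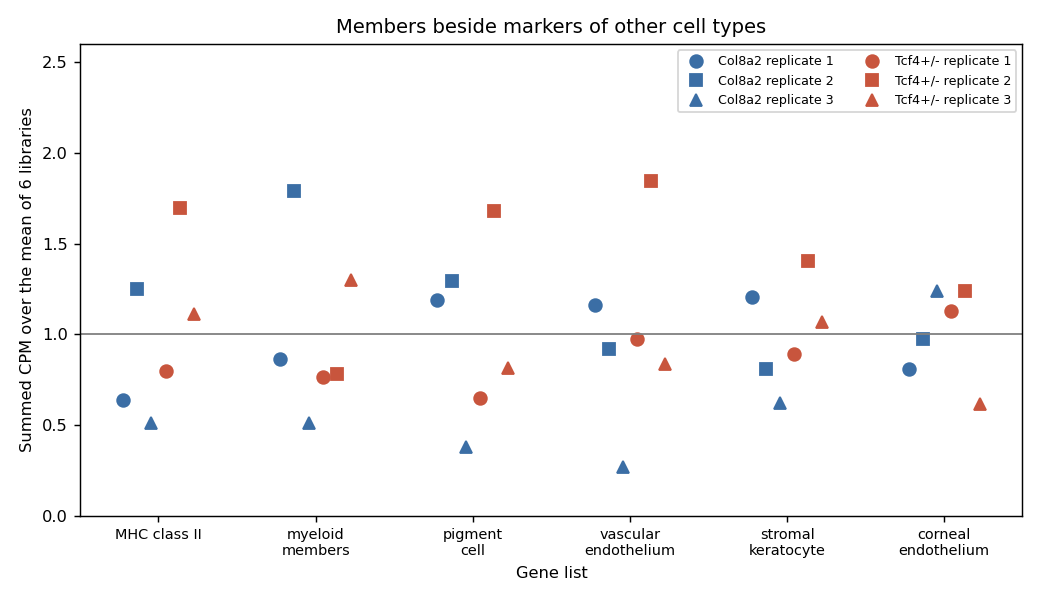
Summed CPM of each list in each library divided by the mean of the 6 libraries (y axis), for class II, the 20 macrophage members and 4 marker lists of other cell types (x axis); blue points are Col8a2 and red Tcf4+/- libraries. Col8a2 replicate 3 (blue triangle) is the lowest point in the first 5 lists. Tcf4+/- replicate 2 (red square) is the highest in 4 of them and in corneal endothelium.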

How the data were processed

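The samples' titles gave the group and the number of each library (2 groups of 3). Per the labels' protocols, RNA came from the RNeasy Micro Kit and cDNA libraries from the SMART-Seq HT Kit and Nextera XT. Strand is not described as kept, so overlapping genes cannot be told apart. Per the submitters' processing notes, the tools were RSEM, STAR, DESeq2, fastp 0.23.2 and FastQC 0.12.1, and the build was GRCm39. Further versions and the annotation used are not stated there. The authors deposited expected counts, which are unscaled, and TPM values, scaled to length and to a common sum, which served as an alternative. A symbol was found for 51884 of 57180 identifiers.

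The expected counts were rounded, filtered with filterByExpr, scaled by TMM and tested with edgeR 4.0.16 in R 4.3.3 (robust quasi-likelihood test, group as the only term). Benjamini-Hochberg adjustment ran over all 17639 genes, with a threshold of 0.05. The median standard error of the log2 fold changes was 0.54. CPM per kilobase divides CPM by the effective length that the authors deposited for each gene. Alternatives were DESeq2 1.42.0, limma 3.58.1 with voom, other scalings, no filter, TPM, left-out libraries and the replicate number as a block. No pair of libraries was alike within sampling noise (chi-square per degree of freedom of at least 129). The motif letters were shortened once after matches had been seen.

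The members and lists were chosen with earlier results of these data known. Every member is given. Of each list of other pathway genes, the 2 of highest CPM per kilobase and the 2 of smallest p are named, except 1 gene that is not reported here. Ly6g, S100a8, Lck, Ighm and all genes named only in the closing section were picked after seeing their values.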

Additional observations from a re-analysis of the deposited data

How the results depend on the processing

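No member was called under any of 15 alternatives, and over all genes edgeR called 0, DESeq2 107 and, with 1 library left out, edgeR 0 to 4 (4 without Col8a2 replicate 3). Of the 36 members 30 changed sign in at least 1 alternative and 6 in none. With 1 library left out, 1 to 7 of 36 members had groups free of overlap, where 14.79% to 19.09% of all genes had, and the list medians ran from 0.020 to 1.26 for MHC class II, from -0.54 to 0.049 for MHC class I, from -0.17 to 0.52 for macrophage and leukocyte surface genes, from -0.15 to 0.48 for C1q and Fc receptor genes and from -0.64 to 1.08 for the microglial markers. Without Tcf4+/- replicates 2 and 3 (1 library left in that group, assumed to vary like the other group), the MHC class II median was 0.055 and the macrophage and leukocyte surface median -0.42. On TPM the median of all genes was -0.15 (pseudocount 1) or -0.18 (pseudocount 0.1), and 35.2% or 37% of genes were fitted higher against 50.1%, so directions there are relative to that shift. The median of transcript length minus effective length was 155 and 150 bases in Tcf4+/- replicates 2 and 3. In the other libraries it was 211 to 241 bases. The cause of the changes between alternatives was not tested.

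Log2 fold changes that changed sign were as follows. On log2(TPM + 1), H2-DMa, H2-DMb1, B2m, Psmb8, Ptprc, C1qb, Fcer1g, S100a9, Igkc and Tcf4 stood at -0.049, -0.30, -0.087, -0.18, -0.019, -0.046, -0.042, -0.16, -0.24 and -0.071 in that order. On log2(TPM + 0.1), H2-DMa, H2-DMb1, B2m, Psmb8, Ptprc, C1qb, Fcer1g, Cd79a, S100a9, Igkc and Tcf4 stood at -0.096, -0.32, -0.088, -0.19, -0.17, -0.044, -0.035, 0.69, -0.16, -0.32 and -0.072 in that order. With limma voom, Ciita, Ptprc, Itgax, Cd79a and Igkc stood at -0.74, -0.12, 0.37, 2.91 and -0.35 in that order. Without the filter, H2-DMb1 stood at -0.00093. With upper-quartile factors, Psmb9, Tyrobp and Psme2 stood at 0.039, 0.052 and 0.059 in that order. Without Tcf4+/- replicates 2 and 3, H2-Ab1, H2-Eb1, B2m, Csf1r, Cd14, Itgam, Mrc1, C1qa, C1qb, C1qc, Fcer1g, Cx3cr1, Cd52, S100a9, Igkc and Jchain stood at -0.52, -0.51, -0.065, -0.13, -1.66, -0.20, -0.35, -0.46, -0.89, -0.21, -0.30, -0.89, -0.013, -0.79, -3.60 and -0.95 in that order. With 1 library left out in turn, log2 fold changes that took both signs ranged from -0.17 to 0.69 for H2-Eb1, -4.12 to 2.95 for Ciita, -0.35 to 0.59 for H2-DMa, -0.24 to 0.34 for H2-DMb1, -0.49 to 0.00047 for H2-D1, -0.81 to 0.53 for Tap1, -0.64 to 0.12 for Tap2, -0.59 to 0.15 for Tapbp, -0.062 to 0.41 for Psmb8, -0.093 to 0.014 for Psmb9, -0.24 to 0.79 for Ptprc, -0.68 to 0.33 for Cd68, -0.17 to 1.02 for Csf1r, -0.67 to 0.52 for Lyz2, -0.17 to 0.63 for Itgam, -1.08 to 0.94 for Itgax, -0.27 to 0.65 for C1qb, -0.23 to 0.65 for C1qc, -0.15 to 0.15 for Tyrobp, -0.18 to 0.52 for Fcer1g, -0.54 to 0.22 for Fcgr3, -0.92 to 1.08 for Trem2, -0.87 to 0.31 for Ctss, -1.003 to 7.13 for Cd79a, -0.38 to 0.25 for Psme2, -0.97 to 0.64 for S100a9, -2.03 to 2.48 for Igkc and -0.89 to 4.33 for Jchain.

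The replicate numbers were not taken as pairs. Deviations of same-numbered libraries correlated at -0.024, 0.139 and -0.015. The value of 0.139, between the libraries numbered 2, was the highest of all pairings across the groups. Pairings of unlike numbers ran from -0.085 to 0.089. With the replicate number as a block edgeR called 0 genes and 0 members. At an unadjusted edgeR p under 0.05 this fit had 2 of 36 members and 432 of 17639 genes. The 2 members were H2-Aa (edgeR unadjusted p = 0.0440) and Cd74 (edgeR unadjusted p = 0.0346), each with an adjusted p of 0.9998. With the replicate number as a block, Ciita, H2-DMb1, Itgax, Cd79a and Igkc stood at -1.38, -0.047, 0.016, 3.90 and -1.14 in that order. Depth limits Ciita, Cd3e, Cd79a and other genes of few counts, whose fold changes are the least certain.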

Other observations

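Library orders were mixed among the other antigen presentation genes, which are named here after their values were seen. Of the 21 tested, replicate 2 was the highest library of both groups for 10, the lowest of both for 3, and neither for 8. The 3 were Irf1, Psme1 and Psme2. No share over all genes tested was computed for these counts, so they describe this list only. Irf1, an interferon-regulated transcription factor, stood at 114, 41.6 and 149 CPM in the Col8a2 libraries and at 118, 69.3 and 99.5 CPM in the Tcf4+/- libraries. Psme1, a proteasome activator subunit, stood at 212, 122 and 153 CPM and at 162, 143 and 211 CPM. Among the 10 were the chaperones of class I assembly Calr, Canx and Pdia3 and the nonclassical class I gene H2-T23. Canx stood at 478, 596 and 427 CPM and at 474, 486 and 231 CPM, and H2-T23 at 48.1, 101 and 45.6 CPM and at 60.9, 92.4 and 75.0 CPM. H2-Eb2 had a count of 0 in all 6 libraries.

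Genes used as dendritic cell markers differed in level. Zbtb46, a transcription factor of conventional dendritic cells that vascular endothelium also expresses, stood at 13.9, 9.41 and 4.01 CPM in the Col8a2 libraries and at 17.9, 6.43 and 16.8 CPM in the Tcf4+/- libraries. Flt3 had counts in Tcf4+/- replicate 2 alone (0.981 CPM), and Ccr7 and Cd209a had counts in Tcf4+/- replicates 1 and 2 alone, at 1.23 and 0.854 CPM for Ccr7 and at 1.61 and 0.600 CPM for Cd209a. These 3 genes did not pass the filter on low counts and were not tested with edgeR. Folr2, a folate receptor of some tissue macrophages, stood at 3.53, 1.49 and 4.39 CPM in the Col8a2 libraries and at 6.69, 5.997 and 6.11 CPM in the Tcf4+/- libraries, without overlap (edgeR unadjusted p = 0.212, adjusted p = 0.9999).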
